A study of Mus musculus with 6 samples.

Results

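The transcription factors that give the gut epithelium its regional and cellular identity were examined for chromatin accessibility in organoids of aged and young mice. They were the caudal homeobox factors Cdx1 and Cdx2, the zinc-finger factors Gata4, Gata5 and Gata6, the homeobox factors Pdx1 and Isx, and the HMG-box factors Sox9 and Sox4. Every consensus peak that the deposited annotation assigns to one of these 9 genes, with its distance to the transcription start site (TSS) at most 100 kb, was taken. That gave 97 of the 156733 peaks in the series: 5 for Cdx1, 3 for Cdx2, 26 for Gata4, 10 for Gata5, 22 for Gata6, 12 for Pdx1, 5 for Sox9, 7 for Sox4 and 7 for Isx. The window left out 6 peaks, all assigned to Gata6. Those next to its edge were weak. The Gata6 peak 97.2 kb upstream held 2.02 CPM (reads in the peak, scaled to a common library total) and the left-out one 103.7 kb upstream 1.16 CPM. Further out, left-out peaks held 65.5 CPM at 116.1 kb, 19.0 CPM at 131.9 kb and 15.2 CPM at 106.7 kb. The first of these exceeds every Gata6 peak inside the window (at most 22.7 CPM). A peak is assigned to the gene with the nearest start site, which does not show that it acts on that gene.

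The assay was ATAC-seq: Tn5 transposase cuts accessible DNA and leaves sequencing adapters at the cut. The cultures were small-intestinal epithelial organoids, which hold stem cells and their differentiated progeny, from C57BL/6JRj mice, with no treatment. The 3 aged libraries came from mice of 20 to 22 months and the 3 young libraries from mice of 2 to 3 months. Replicates 1, 2 and 3 of both ages were taken at passage 4, 3 and 2 after 3 to 5 weeks in culture, so each passage held 1 aged and 1 young library. Whether each library stands for its own animal is not stated in the labels, so the p-values reflect the spread among the libraries at hand, which may be technical.

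CDX2 holds the intestinal programme in the epithelium of the mouse gut, where its loss lets stomach-like genes come on, and CDX1 is its close relative with the highest levels in crypts. GATA4 marks the proximal small intestine of the mouse and keeps ileal genes off there, while GATA6 acts along the whole intestine and GATA5 is the third family member expressed in gut endoderm. PDX1 is needed for the pancreas and the duodenum, SOX9 for Paneth cells, SOX4 for the tuft and enteroendocrine lineages, and ISX, which depends on CDX2, restrains vitamin A uptake genes. These factors bind enhancers that open and close with regional identity, and their own loci carry such elements.

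Total counts in peaks were 21687816 to 26093521 in aged and 7278161 to 25901670 in young libraries. The shallowest was Young replicate 1, where 5283 peaks had no count (123 to 718 peaks in the other libraries). The labelled cell type was checked against markers. Of 12 epithelial markers 9, among them Epcam, Cdh1, Krt8 and Lgr5, had a peak within 1 kb of the TSS. Vil1, Muc2 and Dclk1 had none. The 9 peaks summed to 275 to 280 CPM in aged and 257 to 285 CPM in young libraries. Over markers with such a peak, the median per kb of peak was 21.2 CPM in epithelial and 12.5 CPM in stromal markers. It was 3.02 CPM in endothelial and neural and 2.43 CPM in immune markers. Immune markers had such a peak at 2 of 6 genes, with a summed level of 0.455 to 1.09 CPM in aged and 0.561 to 1.48 CPM in young libraries, and Ptprc had none. Stromal markers had one at 3 of 6 genes (21.9 to 26.8 CPM in aged and 19.0 to 23.7 CPM in young libraries, most of it at Pdgfra), and endothelial and neural markers at 1 of 6, Kdr (1.86 to 2.22 CPM in aged and 2.69 to 3.71 CPM in young libraries). The Kdr ranges do not overlap, and the part of other cell types in the results below was not tested.

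The promoters of these genes differ in base composition as well as in accessibility, and 3 are shown for that reason: Cdx2, the most open promoter per kb, Pdx1, the promoter with the smallest p for age, and Isx, the least open. RefSeq sequences (GRCm38.p6) were available here for 5 of the 9 promoters, each running from 250 bases before to 50 bases after the start, 5′ to 3′ on the strand of the gene. Capitals mark CG dinucleotides. The Cdx2 sequence is chr5:147307200-147307499 on the minus strand, that of Pdx1 chr5:147269847-147270146 on the plus strand and that of Isx chr8:74872924-74873223 on the plus strand.
Cdx2: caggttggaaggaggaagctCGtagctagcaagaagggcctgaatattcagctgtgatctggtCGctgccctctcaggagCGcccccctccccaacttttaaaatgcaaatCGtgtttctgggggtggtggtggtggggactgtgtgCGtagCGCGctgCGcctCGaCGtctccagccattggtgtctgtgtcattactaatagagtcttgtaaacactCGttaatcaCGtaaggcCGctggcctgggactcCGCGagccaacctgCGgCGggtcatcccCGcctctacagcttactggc
Pdx1: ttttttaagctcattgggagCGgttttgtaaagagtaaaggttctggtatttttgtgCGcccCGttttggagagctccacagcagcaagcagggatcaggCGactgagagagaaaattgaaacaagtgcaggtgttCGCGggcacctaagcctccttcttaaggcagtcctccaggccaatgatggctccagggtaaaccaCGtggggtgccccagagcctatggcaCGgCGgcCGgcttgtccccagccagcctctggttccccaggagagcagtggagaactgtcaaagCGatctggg
Isx: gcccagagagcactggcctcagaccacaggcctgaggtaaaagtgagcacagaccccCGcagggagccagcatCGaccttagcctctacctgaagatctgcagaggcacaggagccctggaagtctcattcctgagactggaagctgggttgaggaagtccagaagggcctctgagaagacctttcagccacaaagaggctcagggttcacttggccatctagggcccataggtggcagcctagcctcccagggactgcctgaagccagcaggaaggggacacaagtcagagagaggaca
The Cdx2 promoter holds 18 CG dinucleotides and lies with all 300 bases inside its peak. The Pdx1 promoter holds 11 and has 226 bases inside its peak. The Isx promoter holds 2, against a median of 7 over 32851 RefSeq promoters of this length, and has 0 bases inside a peak, since its promoter peak lies further upstream. Gata5, with 26 CG dinucleotides, and Sox4, with 12, are also covered by their peaks over all 300 bases. Short letter strings of the kind bound by these families were searched on both strands. AGATAA or TGATAA, read by GATA factors, is in 18.6% of all promoters, TTTATNG, read by CDX factors, in 10.9%, and ACAATG or ACAAAG, read by SOX factors, in 28.6%. In the 5 promoters the one match was ACAAAG in Isx, whose first base is 60 bases before the start. A match is a description of the letters and not a binding site.

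At the promoters, 8 of the 9 genes were clearly open in every library and Isx was close to closed. The most accessible was Cdx2 at 98.7 CPM per kb of peak, higher than 99.5% of all peaks, followed by Pdx1 at 60.4 and Gata6 at 42.5. Sox4 stood at 25.0, Gata4 at 22.3, Sox9 at 17.3, Gata5 at 10.5 and Cdx1 at 9.84 CPM per kb, and Isx at 3.67, higher than 28.2% of all peaks. The peaks are broad at Sox9 (2033 bp) and Gata5 (2011 bp) and narrow at Gata6 (369 bp), so the order per kb differs from the order in CPM. The Gata6 peak lies 941 bp upstream, and the peak over the main Gata6 start is assigned to the antisense gene 1010001N08Rik. That shared peak held 60.6, 55.9 and 60.9 CPM in aged and 58.2, 55.4 and 58.2 CPM in young libraries (log2 fold change 0.05). Without strand information in ATAC-seq, signal there cannot be split between both genes.

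**Figure D1:**
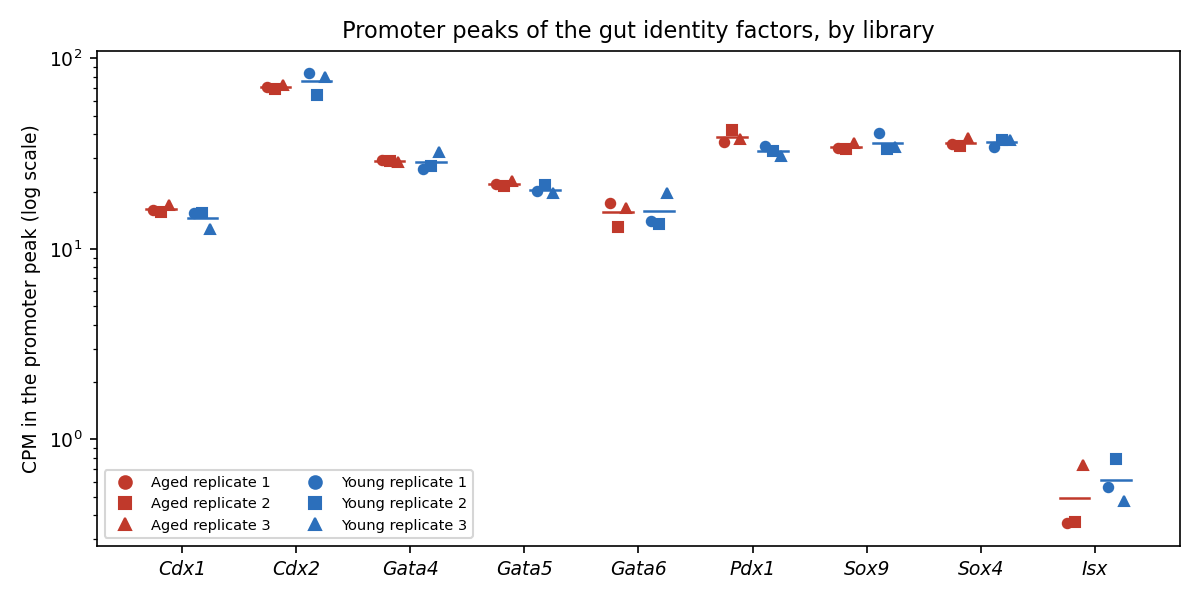
Accessibility of the promoter peak of each of the 9 genes (CPM, log scale) in each library. Red points are aged and blue points young libraries, marker shapes are replicates and horizontal bars are group means. Isx lies below 1 CPM in all 6 libraries and the other genes lie above 12 CPM. The groups separate at Pdx1 and are all but tied at Cdx1.

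Age was tested at each peak with edgeR's quasi-likelihood test over all 132055 peaks that passed a filter on low counts, with p-values adjusted by the Benjamini-Hochberg method and a call at adjusted p under 0.05. No peak of these factors was called. Of the 97 peaks 90 passed the filter, and the 7 others (2 each at Gata4, Gata5 and Isx and 1 at Gata6) had at most 17 counts in any library. Of the 90, edgeR called 0, against a background of 1.13% of all tested peaks (1491). At an unadjusted p under 0.05 there were 6 of the 90, against 9.71% of all peaks. DESeq2 also called 0, with 3 at an unadjusted p under 0.05. The log2 fold changes (aged over young) ran from -0.76 to 0.89 with a median of -0.03, against -0.01 for all tested peaks. In size they had a median of 0.13, against 0.17 for all peaks. The fold change was negative at 53 and positive at 37 peaks. In 8 of the 90 peaks all aged libraries lay above all young ones, against 7.66% of all peaks, and in 6 all aged libraries lay below, against 7.09%.

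The intervals limit how large a difference could be between the libraries at hand. They set no limit for mice of these ages, since the libraries may not stand for separate animals. The 95% interval of the fold change lay within 2-fold in either direction at 83 of the 90 peaks, which is 92.2%, against 77.1% of all tested peaks. It lay within 1.5-fold at 56 of the 90, against 55126 of all 132055 tested peaks. These peaks were also more abundant than most, with a median of 5.21 CPM against 2.31 CPM over all tested peaks, and higher counts narrow an interval. In bulk organoids, fewer cells of a type and less accessibility per cell cannot be told apart.

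**Figure D2:**
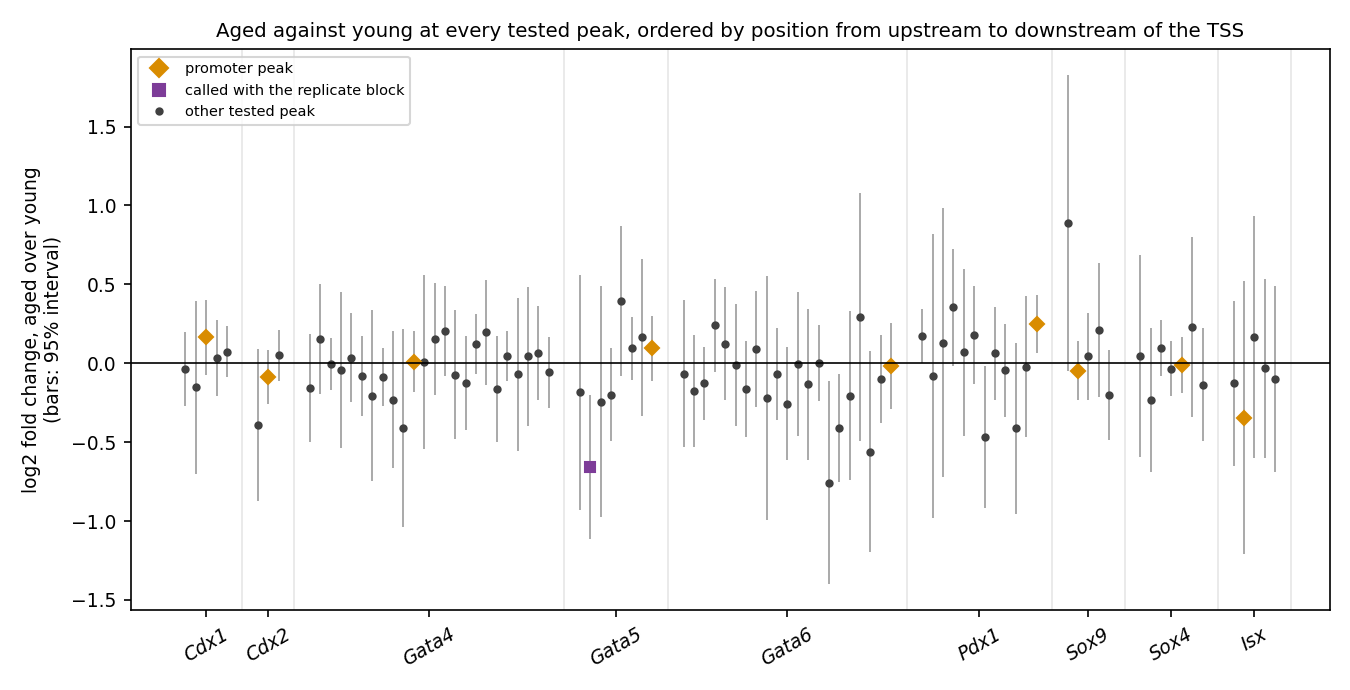
Log2 fold change (aged over young) of the 90 tested peaks with the 95% interval, grouped by gene and ordered from upstream to downstream. Diamonds are promoter peaks and the square is the Gata5 peak called with the replicate block. Most intervals include 0, and the widest belongs to the weak peak upstream of Sox9.

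With the replicate number as a block, which compares aged and young cultures of the same number and passage, 1 of the 90 peaks was called, against 2.67% of all peaks (3523). It is an intergenic peak 18.8 kb upstream of Gata5 (GRCm38, chromosome 2, 180353367 to 180353592), and it fell in aged organoids in that fit. It held 2.68, 2.73 and 2.06 CPM in aged libraries and 5.61, 2.72 and 4.32 CPM in young libraries. The aged value was below its young partner in 2 of 3 pairs and level with it in replicate 2, so the groups overlap. Without the block the log2 fold change was -0.66 (SE 0.22; edgeR adjusted p = 0.212), and with it -0.69 (SE 0.19; edgeR adjusted p = 0.0227). Leaving out 1 library moved it from -0.48 (without Young replicate 1) to -0.95 (without Young replicate 2; edgeR adjusted p = 0.0192), and in thinned libraries it was -0.43. Over all alternatives the edgeR adjusted p ranged from 0.0192 to 0.719. The neighbouring Gata5 peaks at 18 and 19.5 kb held 0.272 and 0.229 CPM and were too weak to test.

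Few peaks were assigned to the caudal genes, up to 7.62 kb from the start at Cdx2 and 10.6 kb at Cdx1. Each peak goes to the nearest start, so these numbers and distances also depend on how close the neighbouring genes start. Cdx2, the central activator of the intestinal programme, has 3 peaks. Its promoter peak (chromosome 5, 147306865 to 147307606) held 70.8, 68.9 and 72.6 CPM in aged and 83.5, 64.0 and 79.8 CPM in young libraries. The aged values lie inside the young range, and the log2 fold change was -0.09 (SE 0.08; 95% interval -0.26 to 0.08). The peak 7.62 kb downstream, past the end of the gene, held 60.3, 59.5 and 63.4 CPM in aged and 64.3, 56.4 and 57.4 CPM in young libraries, again overlapping. The third peak, 2.18 kb upstream, is weak at 1.95 CPM and was below its young partner in 3 of 3 pairs (log2 fold change -0.39, SE 0.24). Cdx1, the crypt-enriched relative, has its strongest peak not at the start but in intron 1, 10.6 kb downstream. That peak held 54.2, 55.7 and 56.0 CPM in aged and 52.9, 51.4 and 53.5 CPM in young libraries. The groups do not overlap, yet the difference was small (log2 fold change 0.07, SE 0.08). The Cdx1 promoter peak held 16.1, 15.5 and 17 CPM in aged and 15.4, 15.5 and 12.7 CPM in young libraries. Its groups are all but tied, parted only by 15.52 CPM in Aged replicate 2 against 15.51 CPM in Young replicate 2. The log2 fold change was 0.16 (SE 0.12, edgeR adjusted p = 0.721).

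At Pdx1, the pancreatic and duodenal factor, 4 of the 12 peaks had all aged libraries above all young ones, against 7.66% of all tested peaks, and none of the 12 passed the test. Its promoter peak (chromosome 5, 147269921 to 147270511, in exon 1) held 36.4, 41.9 and 37.8 CPM in aged and 34.5, 32.8 and 30.8 CPM in young libraries. All 3 aged libraries lie above all young ones. The log2 fold change was 0.25 (SE 0.09; 95% interval 0.07 to 0.43; edgeR adjusted p = 0.263), a fold of 1.19, and with the block the edgeR adjusted p was 0.0624. The strongest distal peak, 34.1 kb upstream (chromosome 5, 147235434 to 147236276), held 42.0, 44.0 and 44.0 CPM in aged and 39.7, 35.9 and 40.1 CPM in young libraries. These groups do not overlap either (log2 fold change 0.17, SE 0.09; edgeR adjusted p = 0.514). A weaker peak 22.6 kb upstream averaged 4.80 ± 0.92 CPM in aged and 3.73 ± 0.08 CPM in young libraries (SD, n = 3 each; log2 fold change 0.35), and that at 9.15 kb 7.82 ± 0.63 CPM in aged and 6.66 ± 1.27 CPM in young libraries. At 9.15 kb the groups are all but tied, parted only by 7.45 CPM in Aged replicate 3 against 7.44 CPM in Young replicate 3. The opposite direction was seen 7.74 kb upstream, with 1.68, 1.76 and 2.17 CPM in aged and 2.39, 2.76 and 2.53 CPM in young libraries (log2 fold change -0.47, SE 0.22; edgeR adjusted p = 0.484). All 11 Pdx1 peaks over 1 kb from the start lie upstream, inside the antisense gene 2210019I11Rik.

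**Figure D3:**
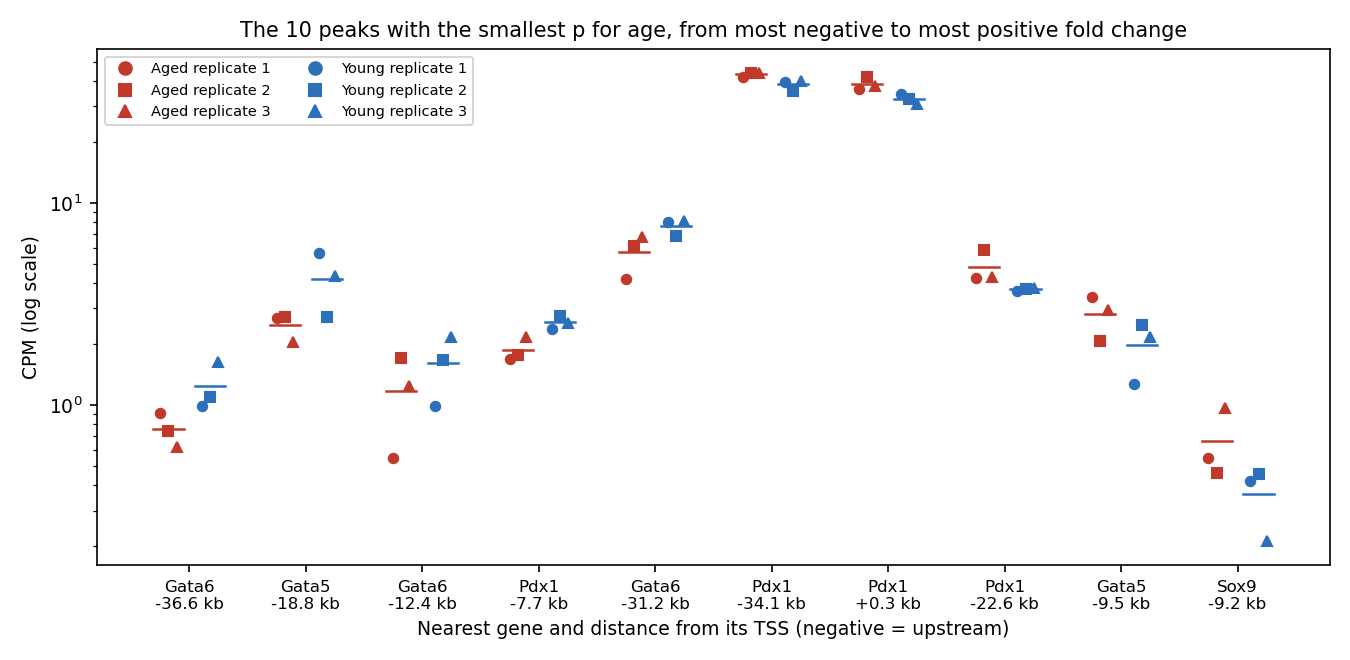
CPM per library (log scale) at the 10 peaks with the smallest p for age, ordered by log2 fold change from most negative to most positive. Red points are aged and blue points young libraries, with group means as bars. Of the 10 peaks, 4 belong to Pdx1, 3 to Gata6, 2 to Gata5 and 1 to Sox9, and only at the Gata5 peak 18.8 kb upstream was a call made, with the replicate block.

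Gata4 was assigned the most peaks, 26 from 71.4 kb upstream to 38.2 kb downstream. Its strongest peak is another promoter-class peak inside the gene, 25.2 kb downstream (chromosome 14, 63245187 to 63246627). It held 57.7, 56.1 and 59.2 CPM in aged and 56.8, 54.8 and 55.9 CPM in young libraries (log2 fold change 0.05, SE 0.08). The groups overlap by a narrow margin and each aged library lies above its young partner. The peak at the annotated start held 29.3, 28.8 and 28.7 CPM in aged and 26.1, 27.3 and 32.2 CPM in young libraries, with the aged values inside the young range (log2 fold change 0.01, SE 0.10). The intergenic peak 55.0 kb upstream was as even, at 51.9 ± 2.1 CPM in aged and 52 ± 2.9 CPM in young libraries (SD, n = 3 each). No Gata4 peak had an unadjusted p under 0.05 in edgeR, and the smallest belonged to an intron 1 peak 6.48 kb downstream (log2 fold change 0.20; edgeR adjusted p = 0.708), where the groups do not overlap.

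Gata5, expressed in differentiated gut epithelium, has 10 peaks, all upstream of its start. The promoter peak held 21.8, 21.3 and 22.6 CPM in aged and 20.2, 21.6 and 19.7 CPM in young libraries. The strongest peak, 8.78 kb upstream, held 27.0, 27.6 and 28.0 CPM in aged and 21.8, 27.0 and 27.4 CPM in young libraries. Young replicate 1 is the low value there, and the log2 fold change was 0.10 (SE 0.10). The peak at 12.6 kb upstream lay lower in all aged libraries (8.06 ± 0.59 CPM in aged and 9.53 ± 1.47 CPM in young libraries; SD, n = 3 each), with a log2 fold change of -0.20 (edgeR adjusted p = 0.726). Its groups are all but tied, parted only by 8.657 CPM in Aged replicate 3 against 8.662 CPM in Young replicate 2. The weak peak 9.55 kb upstream averaged 2.81 ± 0.68 CPM in aged and 1.97 ± 0.64 CPM in young libraries (SD, n = 3 each), with overlapping groups.

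Gata6, which acts along the whole intestine, has 22 peaks, all upstream, most of them in a distal group 42.6 to 97.2 kb away. The strongest, 93.7 kb upstream, held 21.0, 21.0 and 22.9 CPM in aged and 23.4, 19.4 and 28.4 CPM in young libraries. The promoter peak held 17.5, 13.1 and 16.4 CPM in aged and 14.0, 13.6 and 19.6 CPM in young libraries. Both overlap between the ages (log2 fold change -0.13, SE 0.11, and -0.02, SE 0.13). At 17 of the 21 tested peaks assigned to Gata6 the fold change was negative, against 51.96% of all tested peaks. The median was -0.10, against -0.01 over all tested peaks. Peaks inside the gene, assigned to 1010001N08Rik, went both ways, with log2 fold changes of -0.22 to 0.19 and 0.05 at the main start. At 2 of the 21 all aged libraries lay below all young ones, against 7.09% of all tested peaks. The one at 31.2 kb upstream held 4.18, 6.10 and 6.79 CPM in aged and 8.0, 6.88 and 8.12 CPM in young libraries (log2 fold change -0.41, SE 0.17; edgeR adjusted p = 0.370), and without Aged replicate 1, the lowest library, the log2 fold change was -0.23. The one at 36.6 kb held 0.909, 0.739 and 0.621 CPM in aged and 0.982, 1.1 and 1.64 CPM in young libraries (log2 fold change -0.76, SE 0.32; edgeR adjusted p = 0.388), and without Young replicate 3 its log2 fold change was -0.50. At 12.4 kb upstream a further weak peak averaged 1.17 ± 0.59 CPM in aged and 1.60 ± 0.59 CPM in young libraries (SD, n = 3 each). The peak with most counts assigned to Gata6 lies 116.1 kb upstream, beyond the window, with 68.4, 57.2 and 67.3 CPM in aged and 65.4, 62.8 and 71.8 CPM in young libraries.

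**Figure D4:**
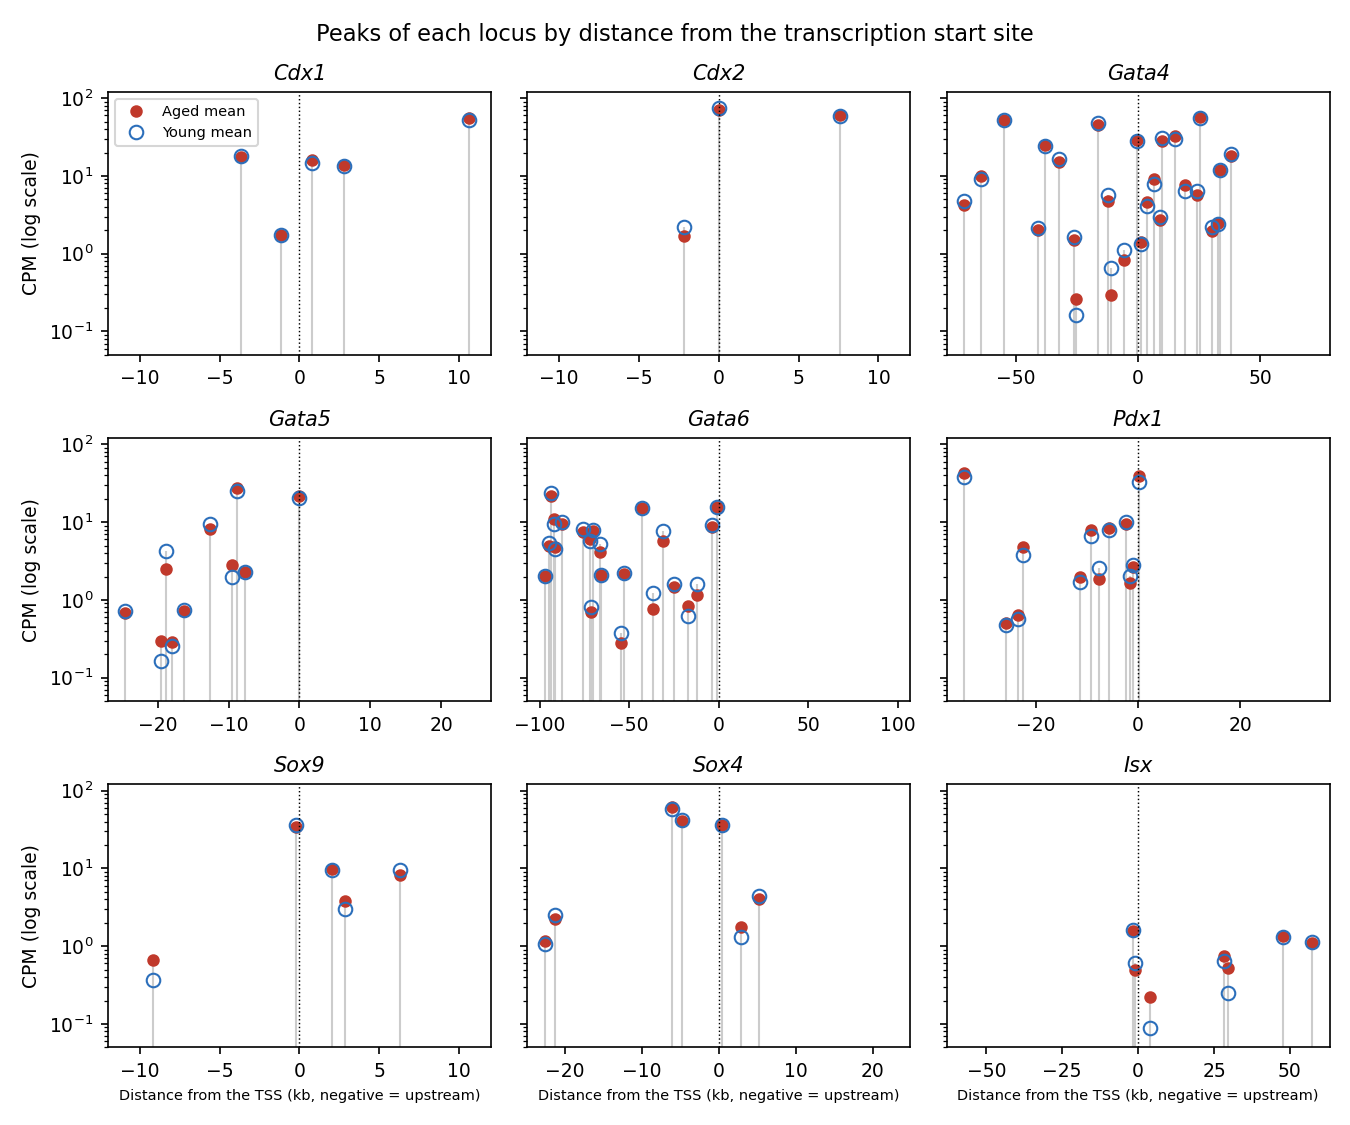
Mean CPM of every peak (log scale) against its distance from the TSS in kb, for the 9 genes, with stems from the bottom of the axis. Red filled points are aged and blue open circles young means. The ages lie on top of each other at nearly all strong peaks, Gata4 spreads on both sides of its start, and Gata5 and Gata6 have peaks on the upstream side.

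Sox4, a factor of secretory progenitors, carries the most accessible peak per kb of all 97. This intergenic peak 6.00 kb upstream (chromosome 13, 28959463 to 28959969) had 118.9 CPM per kb, higher than 99.8% of all peaks. It held 62.6, 65.1 and 58.2 CPM in aged and 67.7, 56.8 and 51.2 CPM in young libraries, with overlap (log2 fold change 0.10, SE 0.09). The Sox4 promoter peak, over its single exon, held 35.7, 34.7 and 38.0 CPM in aged and 34.1, 37.3 and 37.4 CPM in young libraries, and the fold change was near 0 (log2 -0.01, SE 0.09). The smallest p at Sox4 was that of the peak 6.00 kb upstream (edgeR adjusted p = 0.805). Sox9, the crypt-base factor, holds most of its signal at the start. Its promoter peak (chromosome 11, 112781024 to 112783056) held 33.9, 33.3 and 36.1 CPM in aged and 40.4, 33.4 and 34.1 CPM in young libraries. The shallow Young replicate 1 is highest there, and the log2 fold change was -0.05 (SE 0.09) with all libraries and 0.03 without it. The strongest distal Sox9 peak, 2.05 kb downstream, held 9.05, 9.75 and 10.5 CPM in aged and 8.70, 9.38 and 10.1 CPM in young libraries. The largest fold change of all 90 peaks was at a weak Sox9 peak 9.16 kb upstream, in an intron of BC006965, with 0.546, 0.462 and 0.971 CPM in aged and 0.421, 0.454 and 0.211 CPM in young libraries. Its groups do not overlap, but only 3 to 25 counts per library stand behind it (log2 fold change 0.89, SE 0.46; edgeR adjusted p = 0.555).

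Isx, the CDX2-dependent regulator of vitamin A uptake genes, had little open chromatin. Its 7 peaks averaged 0.154 to 1.58 CPM. The promoter peak held 0.364, 0.370 and 0.738 CPM in aged and 0.561, 0.794 and 0.475 CPM in young libraries. The strongest, 1.65 kb upstream, held 1.41, 1.85 and 1.48 CPM in aged and 1.12, 2.12 and 1.53 CPM in young libraries. The 95% interval of the promoter fold change spans -1.21 to 0.52 on the log2 scale, which includes a 2-fold lower but not a 2-fold higher level in aged libraries.

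Summed over the whole locus, the factors again showed no call for age. Counts were added over all peaks assigned to a gene within 100 kb and fitted for all 29775 genes that passed the filter. Of the 9 genes edgeR called 0, against 1.49% of all genes (445), with 1 at an unadjusted p under 0.05, against 11.1% of all genes. DESeq2 also called 0, with 1 at an unadjusted p under 0.05. With the replicate block 0 of 9 were called, against 3.39% of all genes (1010), and 1 had an unadjusted p under 0.05, against 16.1%. The groups overlapped at all 9.

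The 1 gene with an unadjusted p under 0.05 in both fits was Pdx1. Its locus held 116.4, 131.1 and 126.1 CPM in aged and 112.4, 109.5 and 116.7 CPM in young libraries. Each aged value is above its young partner, by 1.04, 1.2 and 1.08 times, while aged replicate 1 lies just below young replicate 3. The log2 fold change was 0.14 (SE 0.06; 95% interval 0.01 to 0.27; edgeR adjusted p = 0.397), and with the block the edgeR adjusted p was 0.117. The Gata6 locus held 142.2, 130.4 and 137.2 CPM in aged and 145.7, 136.4 and 152.2 CPM in young libraries. Peaks inside the gene and those beyond the window are not part of this Gata6 sum. Each aged Gata6 value is below its partner, but the log2 fold change of -0.08 did not pass (SE 0.06; edgeR adjusted p = 0.698). The other 7 loci had log2 fold changes of -0.04 to 0.05. At 8 of the 9 loci the 95% interval stayed within 0.32 of no change on the log2 scale, against 47.7% of all tested genes. The median sum was 118.7 CPM over the 9 loci, against 18.3 CPM over all tested genes. The exception was Isx, with 5.86, 5.70 and 6.85 CPM in aged and 4.44, 6.51 and 6.39 CPM in young libraries and an interval of -0.30 to 0.37.

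**Figure D5:**
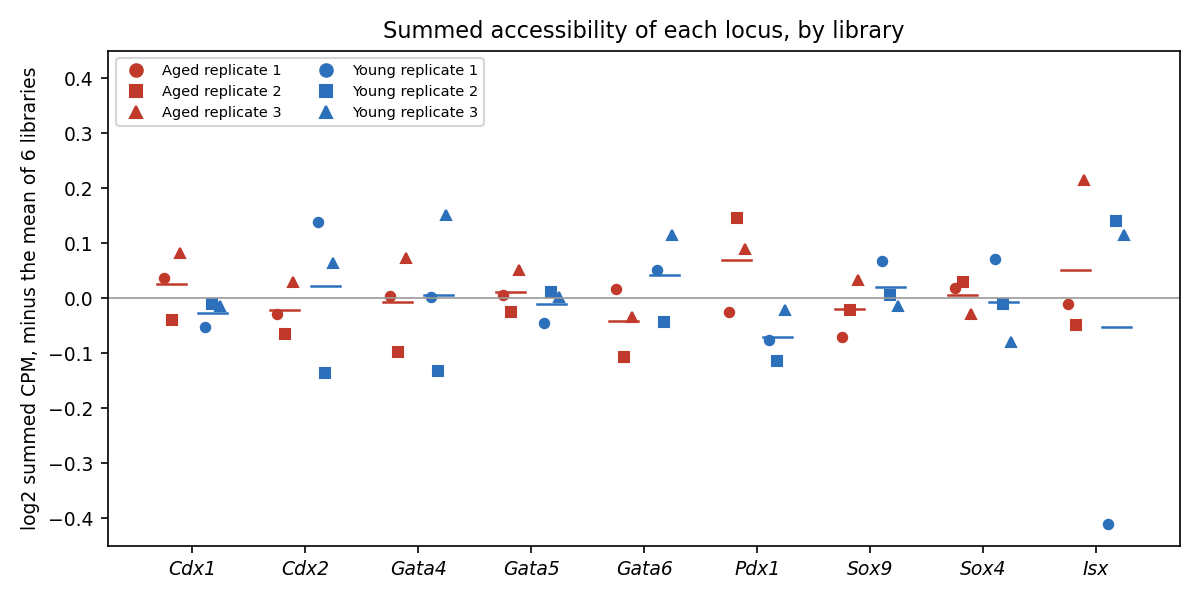
Log2 of the summed CPM of each locus per library, minus the mean of that gene over the 6 libraries. Red points are aged and blue points young libraries, marker shapes are replicates and bars are means of the log2 values. The Pdx1 means lie furthest apart among the 8 loci other than Isx, where Young replicate 1 stands lowest.

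The loci differ in where their signal lies, taken over all 6 libraries. Peaks over 1 kb from the start held 92.3% of the summed CPM at Gata4, 90.5% at Isx, 88.6% at Gata6 and 85.0% at Cdx1. The Gata4 share counts the promoter-class peak 25.2 kb downstream (mean 56.8 CPM) as distal and leaves out peaks inside the gene assigned to Neil2. The Gata6 share leaves out the peak over its main start (mean 58.2 CPM), which is assigned to 1010001N08Rik. With that peak alone the share would be lower. Gata6 peaks beyond the window and deeper inside the gene are left out too, and they would raise it. The share with all of these was not computed. The share was 75.3% at Sox4, 69.1% at Pdx1 and 68.1% at Gata5. It was lowest at Cdx2 (45.9%) and Sox9 (38.9%), the genes with the fewest peaks besides Cdx1. By genomic class, 54 of the 97 peaks were intergenic (55.7%, against 35.8% of all consensus peaks), 28 intronic (28.9% against 42.5%) and 7 of the promoter class, with 4 in exons and 4 at transcription termination sites. In accessibility per kb 21 of the 97 stood in the highest 10% of all peaks, while 31 held under 2 CPM. For scale, a peak of 2.00 CPM stood higher than 54.7% of all consensus peaks.

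A further 22 peaks lie inside these genes but are assigned to another one, 10 in Gata4 (assigned to Neil2), 9 in Gata6 (1010001N08Rik), 2 in Gata5 (Gata5os) and 1 in Pdx1 (2210019I11Rik). They add nothing called to the comparison of ages: of 21 tested, edgeR called 0 with and without the block and DESeq2 called 0, and 0 had an unadjusted p under 0.05 in edgeR. Their log2 fold changes ran from -0.37 to 0.44.

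Passage, fitted as a number beside age, also left these peaks uncalled. Each passage has its own replicate number and culture code in the titles, so passage cannot be told apart from culture. Over all peaks edgeR called 4 for passage, which is 0.00303%, and of the 90 peaks of these factors it called 0. There were 5 with an unadjusted p under 0.05, against 5.27% of all peaks. DESeq2 called 0 over all peaks. The smallest p belonged to the Gata6 peak 92.0 kb upstream, with 12.8, 10.7 and 9.36 CPM in aged libraries at passage 4, 3 and 2 and 10.7, 9.83 and 7.75 CPM in young libraries (log2 change of 0.23 per passage, SE 0.08; edgeR adjusted p = 0.789). In both ages it was highest at passage 4 and lowest at passage 2.

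Of the listed genes that work with these factors, edgeR called none for age without the block. Over all genes that fit called 1.49%, and 11.1% had an unadjusted p under 0.05. These lists, like the 9 factors, were drawn up with earlier results of these data known. Among 14 partner endoderm factors, such as the HNF4, HNF1, FOXA and KLF genes, edgeR called 0 locus sums, with 0 at an unadjusted p under 0.05 and 0 called by DESeq2, and the median log2 fold change was 0.00, against -0.01 for all genes. Among 13 tested paralogues and cofactors edgeR called 0 (1 at an unadjusted p under 0.05, 0 by DESeq2), with a median of -0.05. Of 13 enterocyte and secretory genes tied to these factors in mouse it called 0 (0 at an unadjusted p under 0.05, 0 by DESeq2), with a median of 0.02. With the replicate block 1 of these 13, Fabp1, a fatty acid binding protein of enterocytes, rose (log2 fold change 0.23; edgeR adjusted p = 0.0439), against 3.39% of all genes called with the block. Without the block its edgeR adjusted p was 0.487, and 0.429 in thinned libraries. Fabp1 held 62.2, 45.2 and 56.6 CPM in aged and 46.4, 38.6 and 52.7 CPM in young libraries, higher in 3 of 3 pairs with overlapping groups. Of the 11 tested epithelial markers edgeR called 0 (2 at an unadjusted p under 0.05, 0 by DESeq2), and with the block 1, Olfm4, a gene expressed in intestinal stem cells, fell (log2 fold change -0.21; edgeR adjusted p = 0.0145), against 3.39% of all genes. Olfm4 held 104.2, 99.7 and 90.8 CPM in aged and 117.2, 111.5 and 111.4 CPM in young libraries, and its edgeR adjusted p was 0.153 without the block. Lgr5, also a stem cell gene, was at a log2 fold change of 0.10 and not called, with 66.1 ± 2.2 CPM in aged and 62.4 ± 5.4 CPM in young libraries (SD, n = 3 each). Of the 5 immune and 5 stromal markers tested edgeR called 0 in either list (0 and 1 at an unadjusted p under 0.05, 0 by DESeq2). Among the 6 endothelial and neural markers the neuronal gene Elavl4 fell (log2 fold change -1.47, edgeR adjusted p = 0.00127), against 1.49% of all genes called. It held 1.07, 1.08 and 1.08 CPM in aged and 2.29, 3.23 and 3.11 CPM in young libraries. With the block its edgeR adjusted p was 0.000329. DESeq2 also called 1 of the 6, lower in aged. In libraries thinned to the shallowest depth the edgeR adjusted p of Elavl4 was 0.114.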

How the data were processed

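The deposited values are unnormalised read counts per consensus peak, from featureCounts per the file headers, with a peak annotation on GRCm38. The submitters' processing notes also name MACS2 2.2.7.1 and BWA 0.7.17-r1188, with no settings. For duplicates and the Tn5 offset, the treatment is not given in the sources. Reads without molecular identifiers are not independent molecules, so intervals cover counting error and the spread between libraries only. Scores in the annotation were left unused.

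CPM were computed here with TMM-scaled library sizes, and CPM per kb divide by the peak length. Ages were compared by the robust quasi-likelihood F test of edgeR 4.0.16 in R 4.3.3, after filterByExpr at a minimum count of 10 and without a block. P-values were adjusted by the Benjamini-Hochberg method over all tested peaks or genes. The gene fit used counts summed over all peaks of a gene within 100 kb. Alternatives were RLE factors, library totals, no filter, DESeq2 1.42.0, thinned libraries, other windows, a replicate block and leaving out each library. The test was tried on simulated counts with known changes at well-covered features. Those changes were larger than any seen at the 90 peaks, so the trial does not cover smaller changes or changes at weak peaks.

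Titles give aged and young libraries of one number the same culture code and passage, and on that ground the numbers were used as pairs. The culture codes in the descriptions differ from those in the titles. Deviations from the group means had r = 0.0542, 0.0653 and 0.0923 within pairs and -0.0805 to 0.013 across them (over peaks, which are not independent replicates). Centring on the group means forces positive values within pairs to be offset by negative ones across them. The contrast is therefore partly built in and is no independent evidence for the pairing.

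The 9 genes and the gene lists were chosen with earlier results of these data known. Named peaks were, for each gene, the promoter peak (within 1 kb, most counts), the strongest distal peak and the one with the smallest p, then all called peaks and the 10 smallest p over all genes. List genes were named where called, and the list of other regional factors is not reported here. Other peaks and markers were named after their values were seen.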

Additional observations from a re-analysis of the deposited data

How the results depend on the processing

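The count of called peaks of the 9 factors was 0 under all alternatives except the replicate block (1) and the fit without Young replicate 2 (1), a range of 0 to 1 over the fits that left out 1 library, and both times it was the Gata5 peak 18.8 kb upstream. The pairing moved other counts too: with the replicate block 3523 peaks and 1010 genes were called over the series, against 1491 and 445, and no other peak or locus of these factors changed its call. DESeq2 called 911 peaks, and thinned libraries gave 639 peaks and 268 genes. Leaving out 1 library gave 830 (without Aged replicate 3) to 1902 (without Young replicate 2) peaks and 242 to 796 genes (the same libraries). For passage DESeq2 called 0 peaks and the fit with no filter 32, against 4. Log2 fold changes near 0 changed sign in some fits, none of them called. With peaks over 1 kb only, the Cdx2 locus was at 0.047 and Sox9 at 0.0078, and with peaks within 10 kb Isx was at -0.12. With library totals the Gata4 promoter was at -0.0021, and in thinned libraries the Sox4 promoter at 0.065. Over the fits that left out 1 library the Cdx2 locus ran from -0.12 to 0.014, Gata4 from -0.084 to 0.063, Gata5 from -0.0016 to 0.038, Isx from -0.069 to 0.11 and Sox4 from -0.0196 to 0.0502. The promoters ran from -0.0399 to 0.11 at Gata4, -0.15 to 0.19 at Gata6, -0.048 to 0.018 at Sox4 and -0.093 to 0.028 at Sox9. The cause was not tested. Young replicate 1, with 7278161 counts, limits the depth of each comparison, and weak peaks such as those of Isx have wide intervals.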

Other observations

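For each locus, the gene with the most similar profile over the 6 libraries was sought among 11583 genes with at least 5 peaks, by Pearson correlation of log2 summed CPM. It was Gm22235 for Cdx1, Gm22030 for Cdx2, Gm26386 for Gata4, Gm25216 for Gata5, Fgfbp1 for Gata6, RP24-560A18.2 for Pdx1, 1700017B05Rik for Sox9, Mrps28 for Sox4 and Anks1 for Isx, with correlations of 0.983 to 0.998. Each is the highest of 11583 values over the same 6 libraries, which differ in depth and passage, and 31 to 456 genes per locus passed 0.9, so these names are a description only.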
